A study of Mus musculus with 6 samples.

Results

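Genes of the mouse Zfp series, named Zfp and a number, encode zinc finger proteins, most of them transcription factors in which rows of C2H2 fingers read DNA. The Zfp genes expressed in liver were compared between 3 mice labelled as a hepatocyte Notch1 knockout (KO) and 3 mice with floxed Notch1 (Control, genotype Notch1fl/fl). All 6 livers were untreated, and messenger RNA of whole liver was sequenced. The labels give no Cre line, sex or age, and they do not say that the libraries come from separate litters, so a p-value here speaks of how these 6 livers vary. The members were the protein-coding genes with such a name, Zfp36 left out, whose mean over all 6 livers was at least 0.5 FPKM (fragments counted per kilobase of the gene, made comparable between libraries of unequal size). These were 211 of the 364 protein-coding Zfp-number genes in the table and of 12022 genes tested, among 54532 genes in all. The members were selected on this mean level, taken over KO and Control livers together, so their levels are given as a description only; the rule did not use the difference between the groups. Gene positions are those of the deposited table, on GRCm38.

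In the C2H2 finger a zinc ion is held between a cysteine pair and a histidine pair, and neighbouring fingers together recognise a DNA sequence. Many of these proteins carry a KRAB domain at their start, which binds Trim28 (KAP1); Trim28 in turn brings the histone methyltransferase Setdb1 and HP1 proteins, and the target is packed into silent heterochromatin. KRAB zinc finger genes stand in tandem clusters that arose by duplication, and in mouse they are known for silencing transposable elements and keeping imprints; in mouse liver the KRAB protein Rsl1 restrains male-specific genes.

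The libraries held 15612924 to 17511961 reads in genes, and 3 reads in a gene of 1 kilobase corresponded to 0.150 to 0.201 FPKM. Notch1, the check of the labels, measured 0.301, 0.540 and 0.292 FPKM in the KO livers, against 0.618, 0.965 and 0.854 FPKM in the Control livers, all KO livers below all Control livers (limma adjusted p = 0.257); the value adds all exons and all cell types of the liver. The hepatocyte markers Alb, Ttr, Apoa1, Serpina1a, Fgb and Cps1 were all detected. With the deposited scaling their summed level, most of it Alb, was 33859 to 44406 FPKM in KO and 46561 to 54099 FPKM in Control livers. Of the 6, only Fgb had a higher KO mean. It measured 2065, 843 and 1806 FPKM in the KO livers, against 1364, 1204 and 1184 FPKM in the Control livers. At an unadjusted limma p under 0.05 there were 0 of the 6, beside 13.9% of all genes tested. In whole liver, fewer cells of a type and less RNA per cell cannot be told apart.

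The protein translated from the longest coding sequence of each member (GENCODE M21) held a median of 10 C2H2 fingers, up to 30 in Zfp236, and 114 of the 211 had 10 or more. No finger of the searched spacing was found in 7 members (Zfp185, Zfp330, Zfp503, Zfp703, Zfp750, Zfp839 and Zfp972). A KRAB-like pattern in the first 400 residues of the protein was found in 98 members and not found in 113. The median length of the members' proteins was 572 residues, so the search covered most of many proteins. The same pattern was found in 59 of 18329 proteins of genes with no zinc finger name or family. A diverged KRAB domain would be missed. Members with the pattern had a median of 11.5 fingers and members without it 8. The 153 Zfp-number genes below 0.5 FPKM held the pattern in 98 cases, and 21 of them had 0 reads in every liver.

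A promoter of 300 bases (250 before to 50 after the start) was matched by symbol for 181 of the 211 members in the RefSeq table of GRCm38.p6. Their median count of CG dinucleotides was 14, as over 16492 protein-coding genes, but it was 11 in the 88 matched members with the KRAB pattern and 18 in the 93 without it. The letters ACTACAA, the core of the motif that Zfp143 (itself a member) binds stood in 7.18% of the members' promoters and in 3.89% of all. TATAAA stood in 5.52% against 12.9% of all, and CCGGAAG, an ETS factor core, in 20.99% against 12.3%; each was searched on both strands, and none of the 3 contains another. A match is a description of these windows, not a site.

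The promoters of 4 members are shown to set the letters beside the values, each 5′ to 3′ on the gene's own strand. Zfp185 had the largest difference between the groups (below), Zfp384 is a finger protein without the KRAB pattern among the lower members, and Zfp970 has the KRAB pattern and only 3 CG dinucleotides; in these, capitals mark CG dinucleotides, 20 in Zfp185 and 25 in Zfp384. In Zfp358, whose groups overlapped (KO 4.58, 3.49 and 5.03 FPKM, Control 4.23, 4.02 and 4.34 FPKM), capitals mark the ACTACAA match. They lie at chrX:72987089-72987388, plus strand (Zfp185), chr6:125008876-125009175, plus strand (Zfp384), chr2:177464492-177464791, plus strand (Zfp970) and chr8:3492888-3493187, plus strand (Zfp358).
Zfp185: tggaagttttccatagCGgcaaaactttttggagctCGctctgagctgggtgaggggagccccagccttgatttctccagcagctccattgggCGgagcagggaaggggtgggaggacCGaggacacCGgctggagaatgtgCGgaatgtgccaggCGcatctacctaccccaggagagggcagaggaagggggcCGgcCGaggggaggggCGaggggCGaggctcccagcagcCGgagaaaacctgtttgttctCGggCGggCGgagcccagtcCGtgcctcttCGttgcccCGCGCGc
Zfp384: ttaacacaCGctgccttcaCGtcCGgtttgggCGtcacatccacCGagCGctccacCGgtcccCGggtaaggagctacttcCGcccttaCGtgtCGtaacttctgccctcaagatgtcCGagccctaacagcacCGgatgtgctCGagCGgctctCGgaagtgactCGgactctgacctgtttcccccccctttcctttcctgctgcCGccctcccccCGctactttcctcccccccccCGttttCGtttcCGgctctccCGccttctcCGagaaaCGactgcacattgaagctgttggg
Zfp970: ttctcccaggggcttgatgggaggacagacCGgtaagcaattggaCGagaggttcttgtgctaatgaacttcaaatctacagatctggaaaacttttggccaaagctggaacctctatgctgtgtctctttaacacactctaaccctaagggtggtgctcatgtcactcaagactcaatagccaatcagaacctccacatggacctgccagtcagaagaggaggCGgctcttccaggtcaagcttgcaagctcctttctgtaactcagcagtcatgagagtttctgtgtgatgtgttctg
Zfp358: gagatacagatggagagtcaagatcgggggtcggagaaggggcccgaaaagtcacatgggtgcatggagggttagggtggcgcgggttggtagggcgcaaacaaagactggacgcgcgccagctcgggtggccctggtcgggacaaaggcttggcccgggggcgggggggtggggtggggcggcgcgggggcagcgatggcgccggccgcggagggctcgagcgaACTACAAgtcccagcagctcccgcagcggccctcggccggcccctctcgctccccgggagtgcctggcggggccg

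The members were expressed at low levels. Their mean levels had a median of 1.31 FPKM, against 3.59 FPKM over all genes tested, 72 members were below 1 FPKM and 14 at or above 5 FPKM. The highest was Zfp706, a small protein with 1 finger that in mouse embryonic stem cells represses Klf4, at 23.7, 24.2 and 23.8 FPKM in the KO livers, against 25.9, 23.3 and 23.7 FPKM in the Control livers. The groups overlapped, and the 6 values lay within 23.3 to 25.9 FPKM. Zfp771 followed with 13.1, 11.3 and 13.2 FPKM in the KO livers, against 15.6, 14.98 and 15.4 FPKM in the Control livers, the KO livers all below the Control livers. Zfp598, the ubiquitin ligase that marks collided ribosomes, measured 11.4, 8.73 and 10.2 FPKM in the KO livers, against 11.4, 9.37 and 13.7 FPKM in the Control livers. Zfp91, a ubiquitin ligase of the non-canonical NF-κB pathway in human cells, measured 8.08 to 11.7 FPKM in KO and 9.39 to 11.3 FPKM in Control livers. For both ligases the groups overlapped. Zfp825, Zfp207 (BuGZ, which acts at kinetochores in human cells), Zfp445 (which maintains imprints in mouse and human) and Zfp110 (NRIF, which binds the p75 neurotrophin receptor in mouse) were the other members of the 8 highest, at means over 6 livers of 7.90, 7.89, 7.08 and 7.03 FPKM.

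Around the line of 0.5 FPKM the members just inside were Zfp788, Zfp972 and Zfp94, at 0.503, 0.515 and 0.521 FPKM over the 6 livers. Just outside were Zfp772, Zfp760 and Zfp282, at 0.497, 0.494 and 0.486 FPKM. All 211 members passed the filter of the fit, which is the same mean. In 201 members both group means were at or above the line. In 6 the Control mean was below it (Zfp185, Zfp251, Zfp605, Zfp667, Zfp788 and Zfp972) and in 4 the KO mean (Zfp101, Zfp108, Zfp429 and Zfp963), so these 10, named after their values were seen, passed through the group where they are high.

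Between KO and Control livers the members differed little. By limma on log2(FPKM + 1), with Benjamini-Hochberg adjustment over all 12022 genes, 0 of the 211 members passed an adjusted p of 0.05 in either direction, where 0.025% of all genes tested did (0.00832% higher and 0.0166% lower in KO; 3 genes, or 0 in the fit with a replicate block). The smallest adjusted p was 0.107, for Zfp185, and for the other 210 it was over 0.2. Fitted with limma voom on the recovered reads, 0 members passed as well. At an unadjusted limma p under 0.05 there were 3 higher members (1.42%), where the share of all genes tested was 6.83%, and 10 lower members (4.74%), where it was 7.06%. In both directions together these were 13 members (6.16%), beside 13.9% of all genes. Leaving out 1 liver moved the lower members to 17 without KO 1, 5 without KO 2 or Control 3, and 3 without KO 3 or Control 1, and the higher members to 2 to 5; scaling by total reads gave 5 higher and 1 lower.

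The share at that p depends on the level of a gene, so it was read at like levels too. At 0.5 to 1 FPKM it was 5.56% of 72 members and 11.6% of 1947 genes, at 1 to 2 FPKM 4.17% of 72 members and 12.1% of 2102 genes, and at 2 to 5 FPKM 5.66% of 53 members and 13.1% of 2978 genes. At 5 FPKM and above it was 21.4% of 14 members and 16.1% of 4995 genes. Below 5 FPKM the members' share was thus under that of all genes in each range, while above it 3 of 14 members, Zfp825, Zfp655 and Zfp771, were lower at that p. Means differed by at least 1.5-fold for 11 members, 5 higher and 6 lower (5.21%), and for 12.3% of all genes tested. Of these members, Zfp185, Zfp251, Zfp108, Zfp429 and Zfp963 reached 0.5 FPKM only through the group where they are high. The count is thus in part set by the rule. The coefficient of variation between livers of a group had a median of 17.5% in KO and 15.1% in Control livers over the members, and of 14.4% and 12.6% over all genes tested. At like levels this excess was not general. At 0.5 to 1 FPKM the medians were 20.4% and 21.4% over the members, against 24.9% and 25.4% over all genes. At 1 to 2 FPKM they were 17.8% and 13.4%, against 17.3% and 17.0%. At 2 to 5 FPKM they were 14.6% and 10.8%, against 13.3% and 12.7%. At 5 FPKM and above they were 14.3% and 9.61%, against 11.8% and 9.22%.

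**Figure D1:**
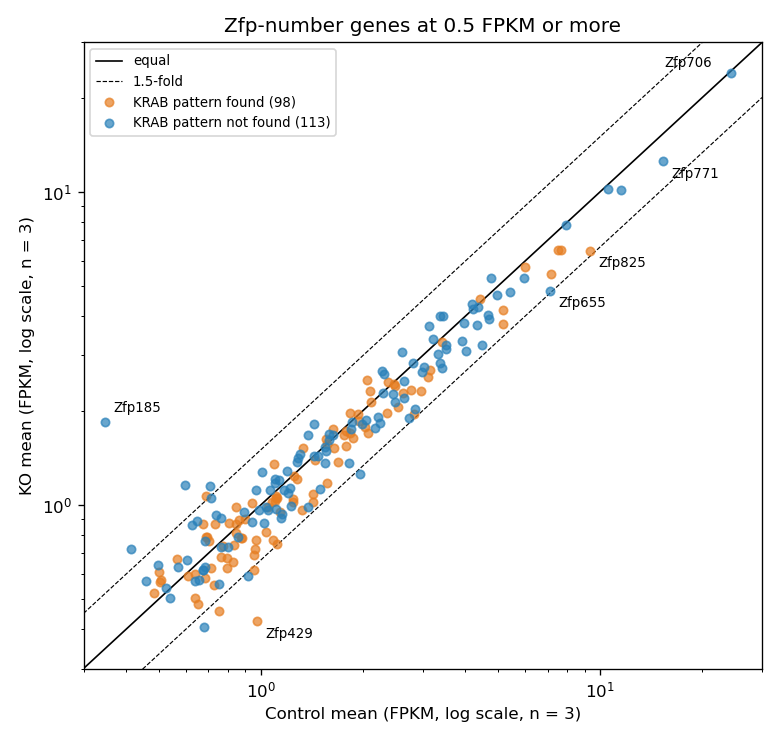
Mean level of each of the 211 members in KO livers (y axis) against Control livers (x axis), in FPKM on log scales, n = 3 livers each; colour marks whether the KRAB pattern was found (98) or not (113), the solid line is equality and the dashed lines are 1.5-fold. Most points lie close to equality, 11 lie at or beyond the dashed lines, and Zfp185 stands farthest out.

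Within this small range the KO means were more often lower. Of the 211 members 69 had a higher and 142 a lower KO mean, so 67.3% were lower, against 51.4% of all genes tested, and the median log2 change was -0.048 against -0.0081. With each library scaled by its total reads in place of the deposited scaling, the split turned round: 59.7% of the members had a higher KO mean and their median log2 change was 0.026, while the median of all genes moved to 0.10. Relative to that median, the members lay 0.040 below on the log2 scale as deposited and 0.071 below with total reads. Over the 19 alternatives they lay from 0.033 below, without KO 2, to 0.084 below, with limma voom on the recovered reads.

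The tendency was not shared by all KO livers. Set against the mean of the Control livers, the median log2 difference of the members was 0.021 in KO 1, -0.085 in KO 2 and -0.10 in KO 3; set against the other Controls, it was 0.0057, -0.0022 and 0.030 in Control 1 to 3. So KO 1 lay among the Control livers, with 97 of 211 members below the Control mean, and KO 2 and KO 3 lay below, with 139 and 151. The summed level of all members was 454, 399 and 417 FPKM in the KO livers, against 456, 447 and 471 FPKM in the Control livers. With scaling by total reads the sums were 433, 455 and 448 FPKM in the KO livers, against 424, 425 and 464 FPKM in the Control livers, and the members' medians in KO 1, KO 2 and KO 3 were 0.021, 0.044 and 0.0068. KO 2 was the library with the largest deposited scaling factor relative to its reads, 1.14 times the average, with 1.07 in KO 3 and 0.928 to 0.981 in the other 4 libraries.

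**Figure D2:**
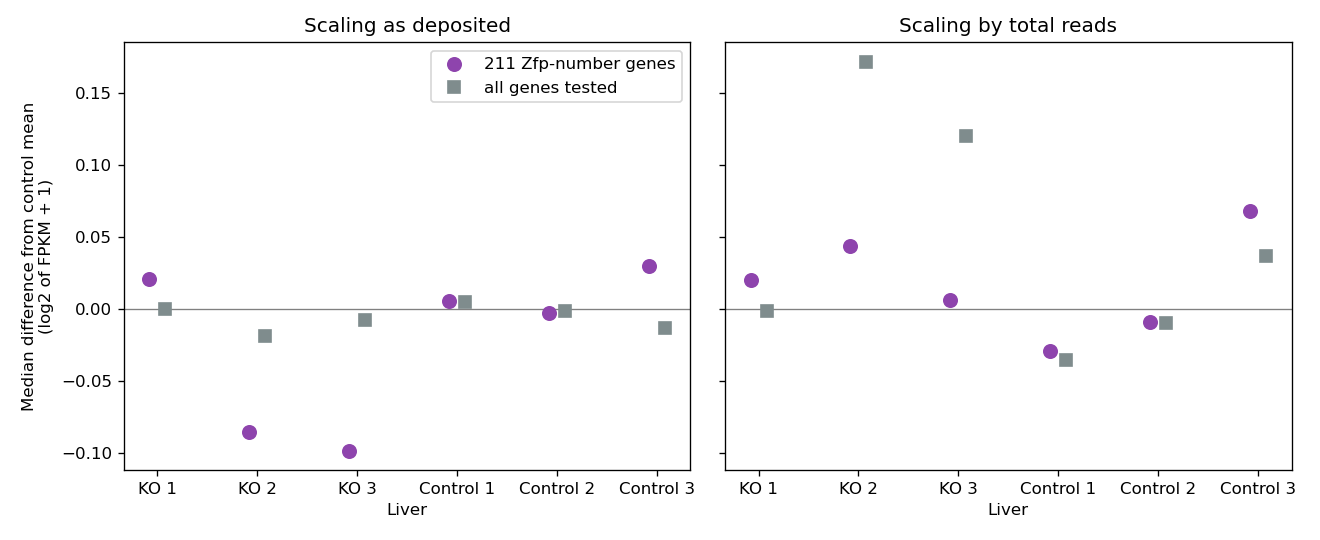
Median difference from the Control mean, in log2 of FPKM + 1, of the 211 members (circles) and of all 12022 genes tested (squares) in each liver, with the deposited scaling (left) and with scaling by total reads (right); each Control liver is set against the other Controls. As deposited, KO 2 and KO 3 lie at -0.085 and -0.098 and the other 4 livers near 0; with total reads the squares of KO 2 and KO 3 lie at 0.17 and 0.12, above the circles.

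Zfp185 had the largest difference of any member, and its mean over 6 livers reached 0.5 FPKM only through the KO livers, so its difference is in part set by the rule. It encodes a LIM domain protein that binds actin filaments, as described for the human protein, and despite its name no C2H2 finger was found in it (ENSMUSG00000031351, chromosome X, 72987339 to 73031543; its promoter is shown above). It measured 1.42, 1.96 and 2.11 FPKM in the KO livers, against 0.126, 0.185 and 0.730 FPKM in the Control livers, so every KO liver was above every Control liver, and Control 3 was higher than the other Controls. Its means were 1.83 ± 0.363 FPKM in KO and 0.347 ± 0.333 FPKM in Control livers (SD, n = 3), 5.28 times apart, with log2 change 1.09, SE 0.19, limma adjusted p = 0.107 and a 95% interval of 0.64 to 1.54. It rested on 7 to 146 reads. Without Control 3 the means were 11.8 times apart, the log2 change was 1.29 and it passed the threshold (limma adjusted p = 0.0464), as 58 of all genes tested then did, and over all alternatives its adjusted p went up to 0.323.

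Markers of mesothelium, the cell layer that covers the liver, were measured in the same livers. All 5 of the markers listed (Msln, Upk3b, Upk1b, Lrrn4 and Krt19) had higher KO means, and none was at 0. Each was higher at an unadjusted limma p under 0.05, where 6.83% of all genes tested were. Their summed level was 80.7, 135 and 101 FPKM in the KO livers, against 5.30, 11.5 and 49.3 FPKM in the Control livers. Control 3 was the highest Control for Zfp185 and for this sum, and KO 1 the lowest KO liver for both. Among the KO livers, Zfp185 was highest in KO 3 and the sum in KO 2. Msln alone, mesothelin, measured 36.6, 60.7 and 41.8 FPKM in the KO livers, against 2.02, 3.90 and 19.1 FPKM in the Control livers. The 5 bile duct markers, Krt19 among them, also had higher KO means, with a summed level of 22.4 to 30.9 FPKM in KO and 12.2 to 15.1 FPKM in Control livers. Only in Krt19, already in the mesothelium list, and Krt7 were all KO livers above all Control livers. In Spp1, Epcam and Cldn7 the groups overlapped. Spp1 measured 11.5, 6.54 and 17.6 FPKM in the KO livers, against 14.0, 10.1 and 5.55 FPKM in the Control livers. The part of mesothelial or bile duct cells in the Zfp185 values was not tested.

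The other members with a higher KO mean differed less. Zfp526, with 13 fingers, measured 1.01, 1.15 and 1.28 FPKM in the KO livers, against 0.710, 0.628 and 0.783 FPKM in the Control livers, and the groups did not overlap (log2 change 0.33, SE 0.10, limma adjusted p = 0.234). Zfp579, with 8 fingers, measured 0.788, 1.499 and 1.18 FPKM in the KO livers, against 0.513, 0.570 and 0.709 FPKM in the Control livers, again without overlap (log2 change 0.42, SE 0.14, limma adjusted p = 0.279). Both lie on chromosome 7, in different clusters. Zfp367, with 2 fingers, measured 3.19, 3.03 and 3.03 FPKM in the KO livers, against 2.80, 2.62 and 2.38 FPKM in the Control livers, a small difference with little spread (log2 change 0.18, SE 0.088, limma adjusted p = 0.411). Zfp46, chosen after its values were seen, was the last of the 5 members whose KO values were all above the Control values, with means of 0.928 ± 0.108 FPKM in KO and 0.739 ± 0.135 FPKM in Control livers. Those 5 are 2.37% of the members, where 9.2% of all genes tested had KO livers all above Control livers.

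Among the remaining 8 of the 12 higher members with the smallest p the groups overlapped, and adjusted p was 0.388 to 0.573. Zfp324, a KRAB member, had means of 1.07 ± 0.261 FPKM in KO and 0.690 ± 0.125 FPKM in Control livers, and Zfp251 0.723 ± 0.233 FPKM in KO and 0.413 ± 0.114 FPKM in Control livers. Zfp341, whose human counterpart activates transcription of STAT3, had means of 0.889 ± 0.105 FPKM in KO and 0.647 ± 0.237 FPKM in Control livers, and its Control values ran from 0.397 to 0.869 FPKM. Zfp503 (Nolz1), a corepressor of striatal development in mouse, had means of 0.864 ± 0.174 FPKM in KO and 0.628 ± 0.134 FPKM in Control livers, and Zfp750, a factor of epidermal differentiation, 3.72 ± 0.620 FPKM in KO and 3.14 ± 0.424 FPKM in Control livers. Zfp275, Zfp954 and Zfp513 had KO means 1.26, 1.22 and 1.18 times the Control means. Zfp750 overlaps Tbcd and Zfp513 overlaps Snx17 on the opposite strand, and as strand use in counting is not given, reads of such pairs cannot be told apart.

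Among members with a lower KO mean, Zfp825 had the smallest p. This KRAB member of chromosome 13 (ENSMUSG00000069208, chromosome 13, 74480054 to 74493992) measured 8.31, 5.66 and 5.50 FPKM in the KO livers, against 9.62, 9.37 and 8.96 FPKM in the Control livers: all KO livers were below all Control livers, but KO 1 was close to them. The means were 6.49 ± 1.58 FPKM in KO and 9.32 ± 0.335 FPKM in Control livers (SD, n = 3, log2 change -0.48, SE 0.15, limma adjusted p = 0.245). Of the stretches of 100 bases in the longest transcript of Zfp825, 10.2% also occur in transcripts of other genes, most often Gm46430. Zfp655, a finger protein whose human counterpart binds the signalling protein VAV1 (ENSMUSG00000007812, chromosome 5, 145231715 to 145247302), measured 5.18, 3.82 and 5.48 FPKM in the KO livers, against 8.08, 5.70 and 7.63 FPKM in the Control livers, without overlap (log2 change -0.48, SE 0.16, limma adjusted p = 0.276). It is one of the better measured members, with 429 to 710 reads. Zfp384 (NMP4 or CIZ), which restrains bone formation in mouse (ENSMUSG00000038346, chromosome 6, 125009145 to 125037870; promoter above), measured 1.86, 1.91 and 2.31 FPKM in the KO livers, against 3.18, 2.41 and 2.93 FPKM in the Control livers, also without overlap (log2 change -0.34, SE 0.11, limma adjusted p = 0.275). Zfp771, whose values are given above, had log2 change -0.27, SE 0.094, limma adjusted p = 0.281, with a KO mean 0.819 times the Control mean.

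Zfp429, a KRAB member of chromosome 13, had the lowest ratio of means of all members, 0.436; it reached 0.5 FPKM only through the Control livers. It measured 0.316, 0.558 and 0.403 FPKM in the KO livers, against 1.18, 1.24 and 0.518 FPKM in the Control livers, and Control 3 lay within the KO range (log2 change -0.45, SE 0.17, limma adjusted p = 0.318; 11 to 46 reads). Of the stretches of 100 bases in its longest transcript, 6.44% also occur in transcripts of other genes, most often Rsl1. Zfp609, a partner of the cohesin loader Nipbl in mouse neural progenitors, measured 1.53, 1.19 and 1.05 FPKM in the KO livers, against 2.24, 1.44 and 2.19 FPKM in the Control livers; KO 1 was above Control 2 (log2 change -0.38, SE 0.15, limma adjusted p = 0.320). Zfp524 measured 2.14, 1.98 and 1.55 FPKM in the KO livers, against 2.78, 2.30 and 3.10 FPKM in the Control livers, without overlap. However, 43.6% of its stretches of 100 bases are shared with the overlapping gene Gm44973, itself at 0 FPKM. Zfp524 also overlaps Fiz1 on the opposite strand, at a mean of 3.50 FPKM, so the level of Zfp524 is uncertain.

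Zfp959, Zfp60, Zfp84, Zfp963 and Zfp748 completed the 12 lower members with the smallest p. All 5 have the KRAB pattern, and in all 5 the KO livers lay below the Control livers. Zfp959 had means of 1.94 ± 0.170 FPKM in KO and 2.83 ± 0.711 FPKM in Control livers, Zfp60 0.619 ± 0.133 FPKM in KO and 0.953 ± 0.109 FPKM in Control livers, Zfp84 0.959 ± 0.111 FPKM in KO and 1.32 ± 0.149 FPKM in Control livers, and Zfp748 0.772 ± 0.0214 FPKM in KO and 1.09 ± 0.177 FPKM in Control livers (SD, n = 3), with limma adjusted p of 0.328 to 0.373 for the 5. Zfp963 had means of 0.459 ± 0.0803 FPKM in KO and 0.752 ± 0.155 FPKM in Control livers, on 17 to 32 reads, and shares 38.0% of its stretches of 100 bases, most with Gm20422. Over all 211 members, the KO livers were below the Control livers in 22 members (10.4%), where this held for 10.6% of all genes tested, about the same share. In both directions together 27 members (12.8%) had no overlap, beside 19.8% of all genes.

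**Figure D3:**
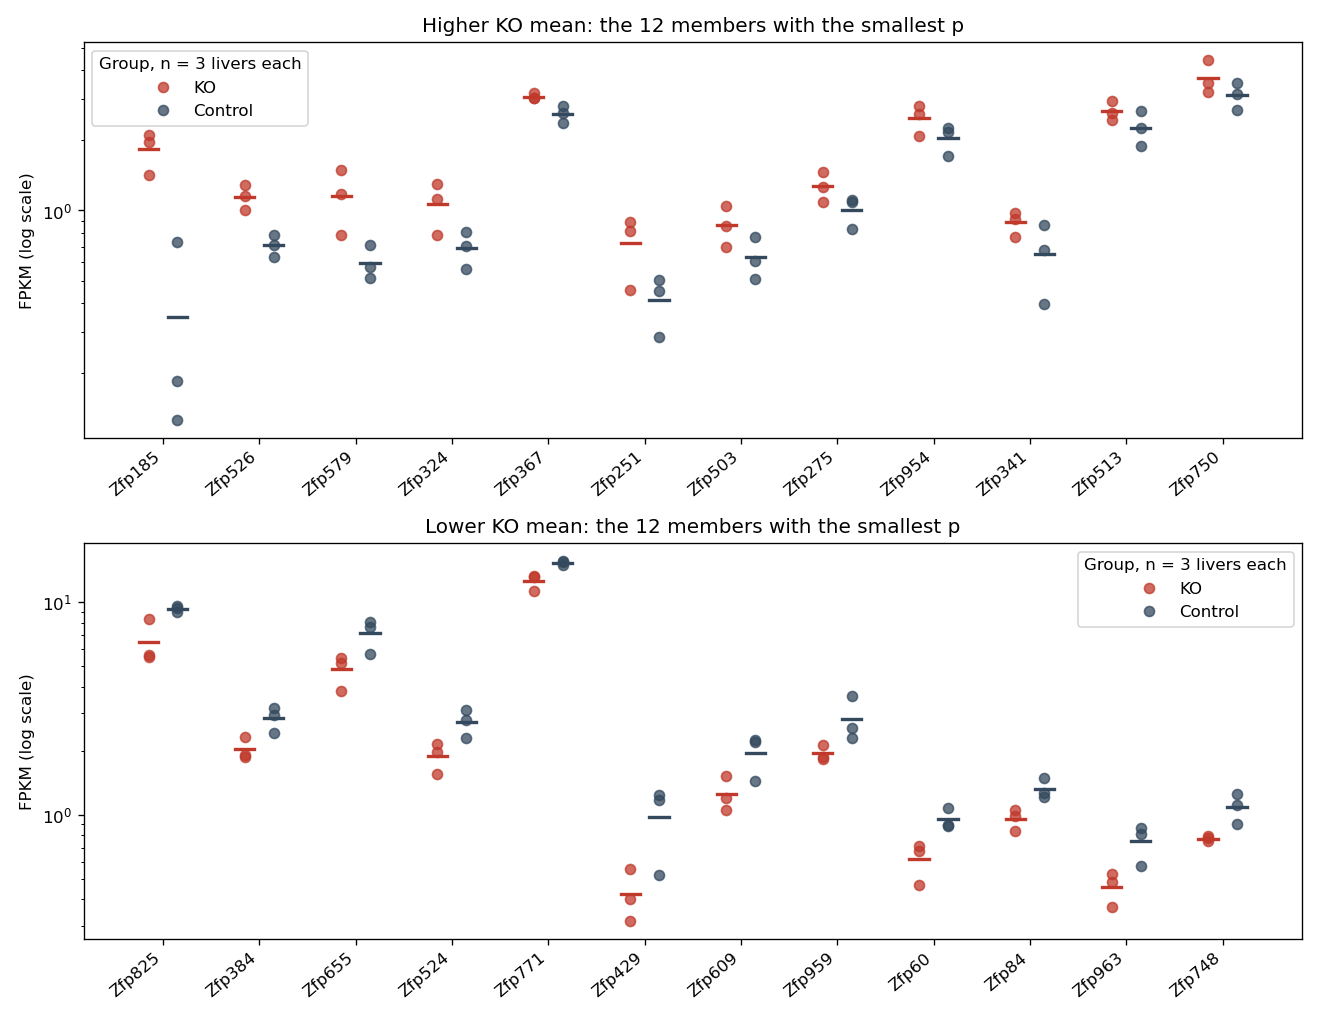
Level in each liver, in FPKM on a log scale, of the 12 members with the smallest p among those with a higher KO mean (upper panel) and a lower KO mean (lower panel); KO livers are left of Control livers for each gene, points are livers (n = 3 each) and bars are means. The groups are apart in Zfp185, Zfp526, Zfp579 and Zfp367 of the upper panel and in all but Zfp429 and Zfp609 of the lower panel.

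Members with and without the KRAB pattern were set side by side. Of the 98 with it, 28 had a higher and 70 a lower KO mean, the median log2 change was -0.063, and the range was -0.48 to 0.28. Of the 113 without it, 41 had a higher and 72 a lower mean, with a median of -0.039 and a range of -0.48 to 1.09. At an unadjusted limma p under 0.05 there were 0 higher and 5 lower members with the pattern, and 3 higher and 5 lower without it, where 6.83% and 7.06% of all genes tested were higher and lower. The difference between the classes was not tested. With scaling by total reads the medians were 0.015 with the pattern and 0.036 without it, both above 0 and both below the 0.10 of all genes. The classes also differ in level, with median mean levels of 1.11 and 1.53 FPKM.

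Genes of the corepressor machinery that KRAB domains recruit were measured in the same livers. They were listed together with genes of the HUSH silencing complex, Morc2a, DNA methyltransferases and Smarcad1. Of 18 tested genes of that list, 12 had higher and 6 lower KO means, 0 passed the adjusted threshold, and the median log2 change was 0.069, against -0.0081 over all genes (0.17 against 0.10 with scaling by total reads). Trim28, the direct partner of the KRAB domain, measured 11.7, 9.64 and 11.5 FPKM in the KO livers, against 12.4, 9.94 and 11.97 FPKM in the Control livers, and Setdb1, the methyltransferase, 2.41, 2.25 and 2.01 FPKM in the KO livers, against 2.20, 2.17 and 2.64 FPKM in the Control livers. Both overlapped between the groups. Morc2a, an ATPase that works with the HUSH silencing complex, had the smallest p of the list; it measured 1.77, 1.28 and 1.55 FPKM in the KO livers, against 2.58, 1.81 and 2.40 FPKM in the Control livers, without overlap (log2 change -0.36, SE 0.13, limma adjusted p = 0.294). Mphosph8, a HUSH subunit that reads methylated histone H3, measured 3.37, 3.99 and 3.46 FPKM in the KO livers, against 3.10, 2.82 and 3.32 FPKM in the Control livers, with the KO livers above the Control livers (log2 change 0.17, SE 0.10, limma adjusted p = 0.480). Pphln1, another HUSH subunit, measured 3.96, 3.40 and 3.89 FPKM in the KO livers, against 3.58, 3.12 and 3.68 FPKM in the Control livers, with overlap. Chd4, named for its link to the member Zfp410, which activates it in red cell precursors, measured 10.1, 10.2 and 10.5 FPKM in the KO livers, against 9.55, 8.70 and 10.8 FPKM in the Control livers, while Zfp410 measured 1.03 to 1.29 FPKM in KO and 1.06 to 1.34 FPKM in Control livers.

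A list of 35 Zfp-number genes with a described function, not all such genes, was chosen with earlier results of these data known. Of these, 34 were members, of which 8 had higher and 26 lower KO means. Lower were thus 76.5%, against 67.3% of all members and 51.4% of all genes tested. The lower share also varied with level, from 55.6% of members at 0.5 to 1 FPKM to 92.9% at 5 FPKM and above. At 2 to 5 FPKM, where the list's median level of 2.21 FPKM lies, it was 73.6% of members. At an unadjusted limma p under 0.05 there were 2 genes of the list (Zfp384 and Zfp609), or 5.88%, beside 13.9% of all genes tested. Past the adjusted threshold there were 0. The list had a median log2 change of -0.074 (0.023 with scaling by total reads). Among the KRAB members known for silencing, Zfp809, which silences murine leukaemia proviruses, measured 3.82, 3.64 and 3.85 FPKM in the KO livers, against 5.99, 3.63 and 5.94 FPKM in the Control livers; the KO livers were alike, with Control 2 just below them and the other Controls above. Zfp445 measured 8.14, 4.995 and 6.42 FPKM in the KO livers, against 7.78, 6.74 and 8.43 FPKM in the Control livers, and Zfp568, which represses a placental Igf2 transcript in mouse, 1.53, 1.38 and 1.64 FPKM in the KO livers, against 1.55, 1.38 and 1.996 FPKM in the Control livers. Both overlapped. Among DNA-binding activators and repressors, Zfp143, which drives small nuclear RNA genes, had means of 1.43 ± 0.109 FPKM in KO and 1.48 ± 0.166 FPKM in Control livers, and Zfp148 (ZBP-89), which binds GC-rich promoters, 2.75 ± 0.0808 FPKM in KO and 3.02 ± 0.166 FPKM in Control livers; the groups did not overlap for Zfp148. Zfp281, which acts in pluripotent cells, had means of 3.10 ± 0.536 FPKM in KO and 4.03 ± 0.964 FPKM in Control livers, and Zfp746 (PARIS), a repressor of PGC-1α, 1.68 ± 0.300 FPKM in KO and 1.63 ± 0.153 FPKM in Control livers. Zfp292, first described as an activator of the growth hormone gene in rat pituitary cells, measured 1.24, 1.08 and 1.06 FPKM in the KO livers, against 1.33, 1.45 and 1.69 FPKM in the Control livers, without overlap (log2 change -0.22, SE 0.10, limma adjusted p = 0.383).

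Further genes of this list act on RNA, ribosomes or the kinetochore. Zfp622, a factor of large ribosomal subunit assembly, had means of 4.30 ± 0.516 FPKM in KO and 4.35 ± 0.250 FPKM in Control livers, and Zfp207 7.85 ± 0.968 FPKM in KO and 7.93 ± 0.711 FPKM in Control livers. Zfp106, an RNA-binding protein that motor neurons need in mouse, had means of 4.68 ± 0.693 FPKM in KO and 4.95 ± 0.387 FPKM in Control livers, and Zfp638, a cofactor of fat cell differentiation in mouse, 1.91 ± 0.488 FPKM in KO and 2.22 ± 0.0990 FPKM in Control livers. Zfp326, of the DBIRD splicing complex in human cells, measured 1.14 to 1.53 FPKM in KO and 1.42 to 1.74 FPKM in Control livers, and Zfp346, which binds double-stranded RNA, 0.737 to 0.955 FPKM in KO and 0.926 to 1.17 FPKM in Control livers. For all 6 the groups overlapped. The 13 further genes of the list had KO means 0.869 times (Zfp260) to 1.11 times (Zfp830) the Control means, 6 of them higher and 7 lower, with overlap in all 13; among them Zfp318, which enables IgD expression in mouse B cells, had means of 0.973 ± 0.101 FPKM in KO and 1.11 ± 0.112 FPKM in Control livers, and Zfp516, a factor of brown fat in mouse, 0.632 ± 0.140 FPKM in KO and 0.570 ± 0.142 FPKM in Control livers. The limma adjusted p of the role-list members other than Zfp384, Zfp609 and Zfp292 was 0.413 or more.

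Chromosome 7 held 51 members, chromosome 17 held 33 and chromosome 13 held 16. Chaining Zfp-number genes with gaps of at most 500 kilobases gave 17 clusters with 3 or more members, which held 105 members, 67 of them with the KRAB pattern, against 31 with the pattern among the 106 members outside. The median log2 change was negative in 15 clusters and positive in 2, and it was -0.064 over the clustered members and -0.035 over the others. Within clusters, higher and lower members stood beside each other: in 1 of the 17 clusters, Zfp560 to Zfp266 on chromosome 9, all members (3) had lower KO means, and 0 had all members higher. With scaling by total reads 10 cluster medians were negative and 7 positive.

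The largest cluster ran from Zfp160 to Zfp213 (chromosome 17, 21008903 to 23564238) and held 17 members of 23 Zfp-number genes, 4 with higher and 13 with lower KO means, a median log2 change of -0.070, and 0 at an unadjusted limma p under 0.05. Its members with the smallest p were Zfp53, with means of 1.37 ± 0.108 FPKM in KO and 1.69 ± 0.223 FPKM in Control livers, and Zfp944, with 2.57 ± 0.452 FPKM in KO and 3.11 ± 0.385 FPKM in Control livers. The chromosome 13 cluster from Zfp759 to Zfp273 (chromosome 13, 67121660 to 67827002) held 10 members of 19, 7 of them lower; Zfp429 and Zfp748, described above, had its smallest p. The cluster of 5 members from Zfp628 to Zfp580 (chromosome 7, 4915217 to 5053723) held Zfp579 among the higher and Zfp524 among the lower members, with log2 changes of 0.42 and -0.37. The cluster from Zfp180 to Zfp526 (chromosome 7, 24081924 to 25227507) likewise ranged from -0.28 to 0.33 over 9 members. On chromosome 2, which carries Notch1, the cluster from Zfp970 to Zfp931 (chromosome 2, 177464733 to 178078476) held 4 members. There Zfp970 measured 5.76, 5.40 and 5.25 FPKM in the KO livers, against 7.67, 5.40 and 8.42 FPKM in the Control livers, with Control 2 at the level of the KO livers, and Zfp971 measured 1.43, 1.42 and 0.682 FPKM in the KO livers, against 1.55, 1.57 and 1.57 FPKM in the Control livers, without overlap (limma adjusted p = 0.518).

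Another 6 clusters are given, each with its member of the smallest p. The cluster Zfp871 to Zfp414 on chromosome 17 (10 members, 3 higher and 7 lower, median -0.048) was led by Zfp472, at 1.02 ± 0.279 FPKM in KO and 1.42 ± 0.241 FPKM in Control livers. The cluster Zfp84 to Zfp146 on chromosome 7 (8 members, 1 higher and 7 lower, median -0.073) was led by Zfp84, at 0.959 ± 0.111 FPKM in KO and 1.32 ± 0.149 FPKM in Control livers. Zfp84 is among the lower members described above. The cluster Zfp553 to Zfp646 on chromosome 7 (8 members, 3 higher and 5 lower, median -0.10) was led by Zfp771, at 12.6 ± 1.09 FPKM in KO and 15.3 ± 0.304 FPKM in Control livers. The cluster Zfp930 to Zfp866 on chromosome 8 (5 members, 1 higher and 4 lower, median -0.048) was led by Zfp963, at 0.459 ± 0.0803 FPKM in KO and 0.752 ± 0.155 FPKM in Control livers. In Zfp771 and Zfp963 the groups did not overlap. The cluster Zfp212 to Zfp775 on chromosome 6 (6 members, 3 higher and 3 lower, median 0.0061) was led by Zfp956, at 0.592 ± 0.161 FPKM in KO and 0.915 ± 0.279 FPKM in Control livers. The cluster Zfp787 to Zfp667 on chromosome 7 (3 members, 2 higher and 1 lower, median 0.049) was led by Zfp444, at 2.65 ± 0.197 FPKM in KO and 2.99 ± 0.212 FPKM in Control livers. These last 2 were the clusters with a positive median.

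**Figure D4:**
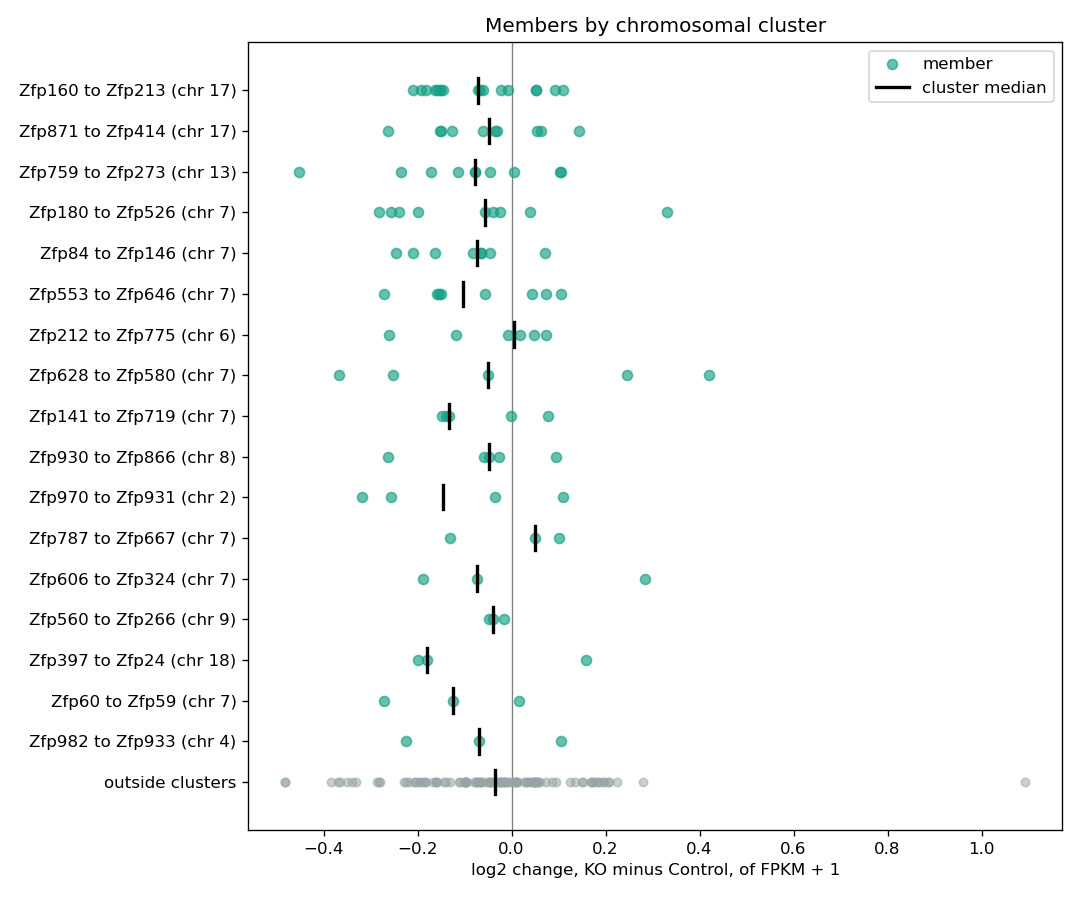
log2 change (KO minus Control, of FPKM + 1) of each member, by chromosomal cluster of 3 or more members and, in the last row, of the 106 members outside clusters; points are members and black bars are medians. Cluster medians lie between -0.18 and 0.049, members on both sides of 0 occur in 16 of the 17 clusters, and Zfp185, outside clusters, lies at 1.09.

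Near-identical copies limit how far single members can be told apart. In 20 members at least 10% of the stretches of 100 bases in the longest transcript also occurred in another gene's transcripts, and in 157 members none did. Zfp825, Zfp970 and Zfp971, described above, are among the 20, at 10.2%, 19.4% and 14.2%. Zfp960 and Zfp97 share 68.3% and 67.3% of theirs, almost all with each other. Their values were alike in direction: Zfp960 measured 0.903, 0.916 and 0.439 FPKM in the KO livers, against 1.02, 1.15 and 1.17 FPKM in the Control livers, and Zfp97 0.698, 0.725 and 0.741 FPKM in the KO livers, against 0.844, 0.954 and 1.08 FPKM in the Control livers. Zfp969, all of whose stretches occur in Zfp968, and Zfp973, with 74.9%, cannot be separated from their copies. An overlap with an annotated gene on the opposite strand was found for 68 members.

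Related families were fitted in the same model. Of 32 tested Zbtb genes, 15 had higher and 17 lower KO means (median log2 change -0.0099); of 20 Zfp genes with a letter after the number, 9 had higher and 11 lower means (-0.029); of 8 Zkscan genes, 2 had higher and 6 lower means (-0.094); and of 7 Zscan genes, 3 had higher and 4 lower means (-0.090). In each of these families 0 genes passed the adjusted threshold by limma, and at an unadjusted p under 0.05 there were 4 Zbtb genes (12.5%), 1 Zkscan gene (12.5%) and 0 in the other 2 families, beside 13.9% of all genes tested. With scaling by total reads the Zbtb median turned to 0.051, that of the Zfp genes with a letter to 0.052 and that of the Zkscan genes to 0.0030, while that of the Zscan genes stayed negative at -0.016. Whether the members differ from these families was not tested.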

How the data were processed

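Messenger RNA of 6 whole livers (3 KO, 3 Control) was taken with poly-T beads and made into libraries with a NEBNext Ultra kit, per the labels' protocols. HISAT2 2.0.5 and featureCounts 1.5.0-p3 on GRCm38 are listed in the submitters' processing notes. The authors deposited FPKM values per gene; how these were computed is not given in the sources used here. Multiplying each value by its gene length gave whole reads (tolerance 0.1 read, 100% of values above 0) once divided by a constant of the library; this constant followed the median ratio of the reads to their geometric mean over libraries, so scaling between libraries is part of the deposited FPKM. Columns named KO match the KO labels; columns named NC were taken as Control by elimination, and every Control value rests on this.

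The 12022 genes averaging 0.5 FPKM or more were fitted on log2(FPKM + 1) with limma 3.58.1 (eBayes with trend) in R 4.3.3, KO against Control, with two-sided p adjusted by Benjamini-Hochberg over all of them; a pseudocount of 1 understates changes of low genes. The labels tie the replicate number to no litter or day. Deviations from the group means had correlations over genes of 0.31, 0.16 and 0.10 between livers of the same number 1, 2 and 3. Other pairs had -0.25 to 0.11, so only numbers 1 and 2 lay above the other pairs. A fit with the number as a block was run too. The 19 alternatives covered pseudocounts, filters, scaling, eBayes settings, weights, voom on the recovered reads, the replicate block and each liver left out. Members, lists and tests were chosen with earlier results of these data known. Named were the 12 members with the smallest p in each direction, the 8 highest, those at the 0.5 FPKM line, members of a list of described functions, up to 3 members of each cluster, Trim28, Setdb1 and up to 3 genes of the KRAB partner list by p; others named were chosen for a sequence feature or are marked. Fingers and KRAB patterns were counted in translated GENCODE M21 coding sequences (design: RefSeq proteins, not used here), fingers as a cysteine pair and a histidine pair at C2H2 spacing.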

Additional observations from a re-analysis of the deposited data

How the results depend on the processing

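Under 19 alternatives the count of members past an adjusted p of 0.05 stayed at 0 in each direction, except without Control 3, where 1 higher member (Zfp185) passed; leaving out single livers gave 0 to 1 higher and 0 to 0 lower. At an unadjusted p under 0.05 the 3 higher and 10 lower members became 5 and 1 with total-sum scaling and 5 and 1 with scaling by total reads (added after the data were seen), and lower members became 17 with quantile normalization; a filter at 1 FPKM left 1 higher, and fewer members (139) were tested there. Leaving out single livers gave 2 to 5 higher and 3 to 17 lower, the most lower without KO 1 and the fewest without KO 3 or Control 1. Members without overlap (5 higher, 22 lower) became 12 and 4 with total-sum scaling and 11 and 7 with total reads, 2 higher with the filter at 1 FPKM, and 10 to 15 higher and 28 to 57 lower with single livers left out, where fewer livers make overlap rarer. The median log2 change turned to 0.029 with total-sum scaling and 0.026 with total reads, where all genes moved to 0.10 and 0.10, and the share with a higher KO mean to 59.7% in both, from 32.7%; without single livers the median was -0.082 to -0.036. The difference from the median of all genes kept its sign in all 19. No log2 change of the 24 named members with the smallest p reversed.

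With the replicate block 0 members passed an adjusted p of 0.05, 4 higher and 9 lower were at an unadjusted p under 0.05, and 0 of all genes passed the adjusted threshold, where 3 did without the pairing. Clusters of 3 or more members numbered 17, and 16 or 19 with gaps of at most 250 kilobases or 1000 kilobases. Depth limits members near 0.5 FPKM, the thinnest of which had 3 reads in a liver.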
